A study of Mus musculus with 12 samples.

Results

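The livers described here came from Fgf18 transgenic (Tg) mice and non-Tg mice kept on the normal diet, 3 mice per group. They gave 6 of the 12 libraries of the series, and all genes of their table were examined. FGF18 is a secreted fibroblast growth factor. It acts on neighbouring cells through FGF receptors, which are receptor tyrosine kinases that signal through the ERK pathway and induce their own inhibitors (sprouty proteins and dual-specificity phosphatases). In the liver, other members of the family, such as the gut hormone FGF15, act on hepatocytes to lower bile acid synthesis.

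Fgf18 Tg mice carried an Fgf18 cDNA in the Rosa26 locus behind a CAG promoter and a floxed stop cassette, which the albumin promoter-driven Cre recombinase (Alb-Cre) removes in hepatocytes. Both groups were given as C57BL/6 in origin and were sampled at 8 weeks of age. The Fgf18 transgene was placed in embryonic stem cells that derive from a cross of that strain with CBA mice. No number of later backcrosses was given in the sources used here. Whether CBA sequence remained in Fgf18 Tg mice, and its part in any change below, was not tested. Which founder line was sequenced, whether the non-Tg mice carried Alb-Cre and the sex of each mouse were not given in the sources used here. The other 6 libraries came from female Cflar LKO mice, whose hepatocytes lack the apoptosis inhibitor cFLIP (Alb-Cre with a floxed Cflar gene), and female Cflar FF mice, the floxed controls without that deletion, all fed the choline-deficient, ethionine-supplemented (CDE) diet for 28 days from 8 weeks of age. The sample labels do not say that the replicates were handled separately beyond being separate mice, so the p-values below measure the spread between these mice.

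Polyadenylated RNA of whole liver was sequenced, and Fgf18 Tg libraries held 3089872, 1981658 and 1136680 counts, against 2215877, 1726126 and 2119665 in non-Tg libraries. Normalized counts are read counts scaled for library size and composition (TMM factors) to a common depth. Of the 25285 genes listed, 10909 had enough counts to be tested with edgeR's quasi-likelihood test, and a gene is said to have risen or fallen where its Benjamini-Hochberg adjusted p was under 0.05. Errors are the standard error (SE) of a log2 fold change (Fgf18 Tg over non-Tg) or the SD of 3 mice.

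Fgf18 RNA had 9564, 5725 and 2803 counts in Fgf18 Tg libraries, against 191, 63 and 90 in non-Tg libraries, so that the labels of all 6 libraries fit the transgene. Its log2 fold change was 5.27 (adjusted p = 0.000244). Among the receptors, Fgfr2 had 76.3, 88.2 and 93.3 normalized counts in Fgf18 Tg livers, against 46.3, 41.0 and 42.9 in non-Tg livers. Its 3 Fgf18 Tg libraries lay above all 3 non-Tg libraries (log2 fold change 0.96 ± 0.17, adjusted p = 0.000676). Fgfr1 had 11.4, 16.2 and 24.5 normalized counts in Fgf18 Tg livers, against 6.46, 7.93 and 11.3 in non-Tg livers, which did not pass the test (log2 fold change 0.88 ± 0.39, adjusted p = 0.12). Fgfr4, the main FGF receptor of hepatocytes, had 28.2, 30.6 and 32.1 normalized counts in Fgf18 Tg livers, against 31.2, 21.1 and 24.9 in non-Tg livers, and the groups overlapped (log2 fold change 0.20 ± 0.24, adjusted p = 0.585). Fgfr3 also overlapped, with 39.7, 36.9 and 36.7 in Fgf18 Tg livers and 30.1, 64.8 and 32.8 in non-Tg livers. The Y-linked gene Ddx3y had 187, 111 and 59 counts in Fgf18 Tg libraries, against 115, 73 and 63 in non-Tg libraries, and Xist, the RNA of the inactive X chromosome in females, had 1, 4 and 1 counts in Fgf18 Tg libraries, against 1, 0 and 1 in non-Tg libraries. By these counts all 6 livers were from males.

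The transcriptome of Fgf18 Tg livers changed in an uneven way. Of the 10909 genes tested, 1169 rose (10.7%) and 1275 fell (11.7%). The genes that rose did so by more, with a median log2 fold change of 1.21, against -0.64 for the genes that fell. Past a 2-fold change, 732 genes (6.71%) were higher and 223 (2.04%) lower. For 4213 genes (38.6%) the 3 Fgf18 Tg libraries did not overlap the 3 non-Tg libraries. The median of all genes tested was 0.02 on the log2 scale.

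Most of the most abundant genes fell. Of the 100 genes with the highest mean normalized count 61 fell and 2 rose, and of the next 400 genes 198 fell and 33 rose. Among the 5909 genes of lowest count that were tested, 130 fell and 749 rose (12.7%, beside 10.7% of all genes), and most were not called. This split depends on the scaling of the libraries. The major urinary protein genes alone held 6.65, 4.75 and 4.97% of the counts in Fgf18 Tg livers, against 17.7, 14.3 and 15.8% in non-Tg livers. That difference of -10.46 percentage points gave p = 0.1 in a two-sided exact permutation test, the smallest value that 3 against 3 allows. With library totals alone as the scale, the median of all genes moved to 0.42, 3632 genes were called higher and 344 lower, and of the top 100 genes 32 were called lower and 19 higher. With library totals that leave out the major urinary protein genes the median was 0.24, and 2041 genes were called higher and 578 lower. All fold changes below are relative to the TMM scale, and counts under library totals alone are given beside many of the lists whose calls they change. In whole liver, a lower share of hepatocytes and less of an RNA per hepatocyte cannot be told apart.

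**Figure D1:**
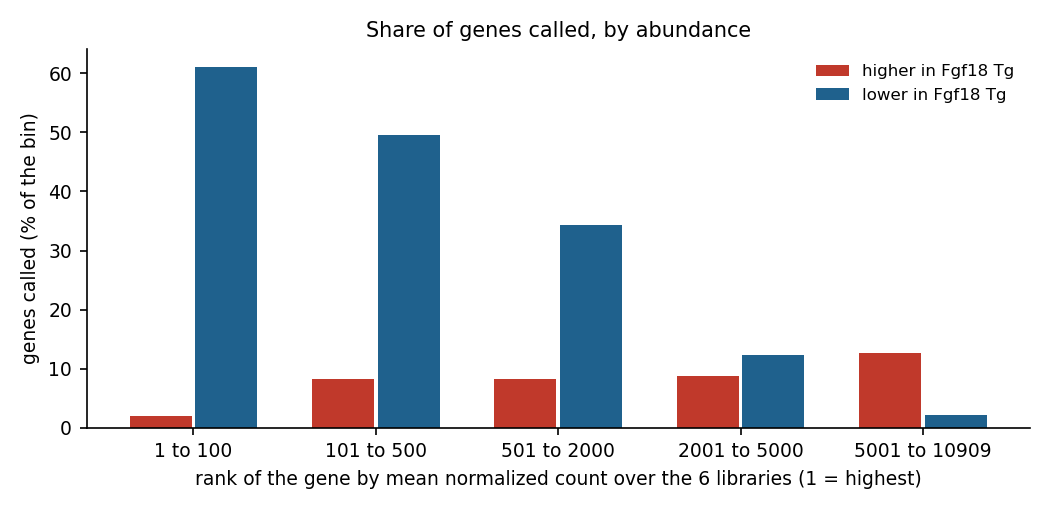
Share of genes called higher (red) and lower (blue) in Fgf18 Tg livers, in percent of each bin, against the rank of the gene by mean normalized count over the 6 libraries. In the bin of ranks 1 to 100, 61% of genes were lower and 2% higher, and in the bin of ranks 5001 to 10909, 2.2% were lower and 12.7% higher.

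The genes that fell by most coded for liver enzymes, transporters and a few proteins of other kinds. Fitm1, a lipid droplet protein, had 0.601, 2.70 and 0 normalized counts in Fgf18 Tg livers, against 23.7, 89.9 and 49.7 in non-Tg livers (log2 fold change -5.36 ± 0.83, adjusted p = 0.00266). The transcript 9130409I23Rik had 1.20, 0.900 and 0 normalized counts in Fgf18 Tg livers, against 30.1, 41.0 and 32.8 in non-Tg livers (log2 fold change -5.11 ± 0.47, adjusted p = 1.08e-06). In both genes the Fgf18 Tg libraries were near 0 and all non-Tg libraries were above 20. Slc22a7, an organic anion transporter of the hepatocyte, had 15.6, 12.6 and 7.65 normalized counts in Fgf18 Tg livers, against 125, 137 and 149 in non-Tg livers (log2 fold change -3.39 ± 0.21, adjusted p = 2.51e-08). Car14, a membrane carbonic anhydrase, had 22.2, 34.2 and 35.2 normalized counts in Fgf18 Tg livers, against 196, 215 and 205 in non-Tg livers (log2 fold change -2.81 ± 0.18, adjusted p = 2.63e-08). Rarres1, a retinoic acid-induced gene, had 29.4, 23.4 and 29.1 normalized counts in Fgf18 Tg livers, against 248, 303 and 219 in non-Tg livers (log2 fold change -3.22 ± 0.17, adjusted p = 4.7e-09). In each of the 3 genes the groups were apart. Nat8f5 (-3.65), Susd4 (-2.92) and LOC118567368 (-3.13) completed the genes outside the enzyme families treated below.

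Apart from Fgf18, several of the genes that rose by most had few or no counts in non-Tg livers. Ngp, a neutrophil granule protein, had 296 counts over the Fgf18 Tg libraries and 0 over the non-Tg libraries, at least 74.0-fold higher against a floor of 3 counts over the group. Likewise Msmp was at least 35.0-fold higher, Fam180a at least 25.5-fold and Capn6 at least 19.5-fold, each with 0 counts in all non-Tg libraries. Akr1c18, an enzyme that inactivates progesterone, had 200 counts over the Fgf18 Tg libraries and 2 over the non-Tg libraries, a ratio of 75.0 (95% interval 20.5 to 623). Such intervals and floors pool the 3 mice of a group, so they cover counting error only and not the spread between mice. The reads were amplified by PCR without molecular identifiers, so even the counting error may be understated. Lepr, the leptin receptor (chosen after its values were seen), had 67.9, 75.6 and 76.5 normalized counts in Fgf18 Tg livers, against 5.38, 6.61 and 3.39 in non-Tg livers (log2 fold change 3.81 ± 0.28, adjusted p = 1.13e-07). Pdgfra, a receptor of fibroblast-like cells, had 60.1, 73.8 and 65.8 normalized counts in Fgf18 Tg livers, against 2.15, 3.96 and 2.26 in non-Tg livers (log2 fold change 4.54 ± 0.32, adjusted p = 9.73e-08). In both genes the lowest Fgf18 Tg library was far above the highest non-Tg library.

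The plot of hepatocyte lists shows how the members of each program moved. The lists were major urinary proteins, sex-biased genes, detoxifying enzymes, bile acid genes, fat oxidation, amino acid breakdown, plasma proteins, transcription factors, sterol synthesis and ribosomal proteins. Some lists share genes, such as Cyp2a5 and Cyp2c29 in those of cytochrome P450 and pericentral genes. The counts of such lists are not independent of each other.

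**Figure D2:**
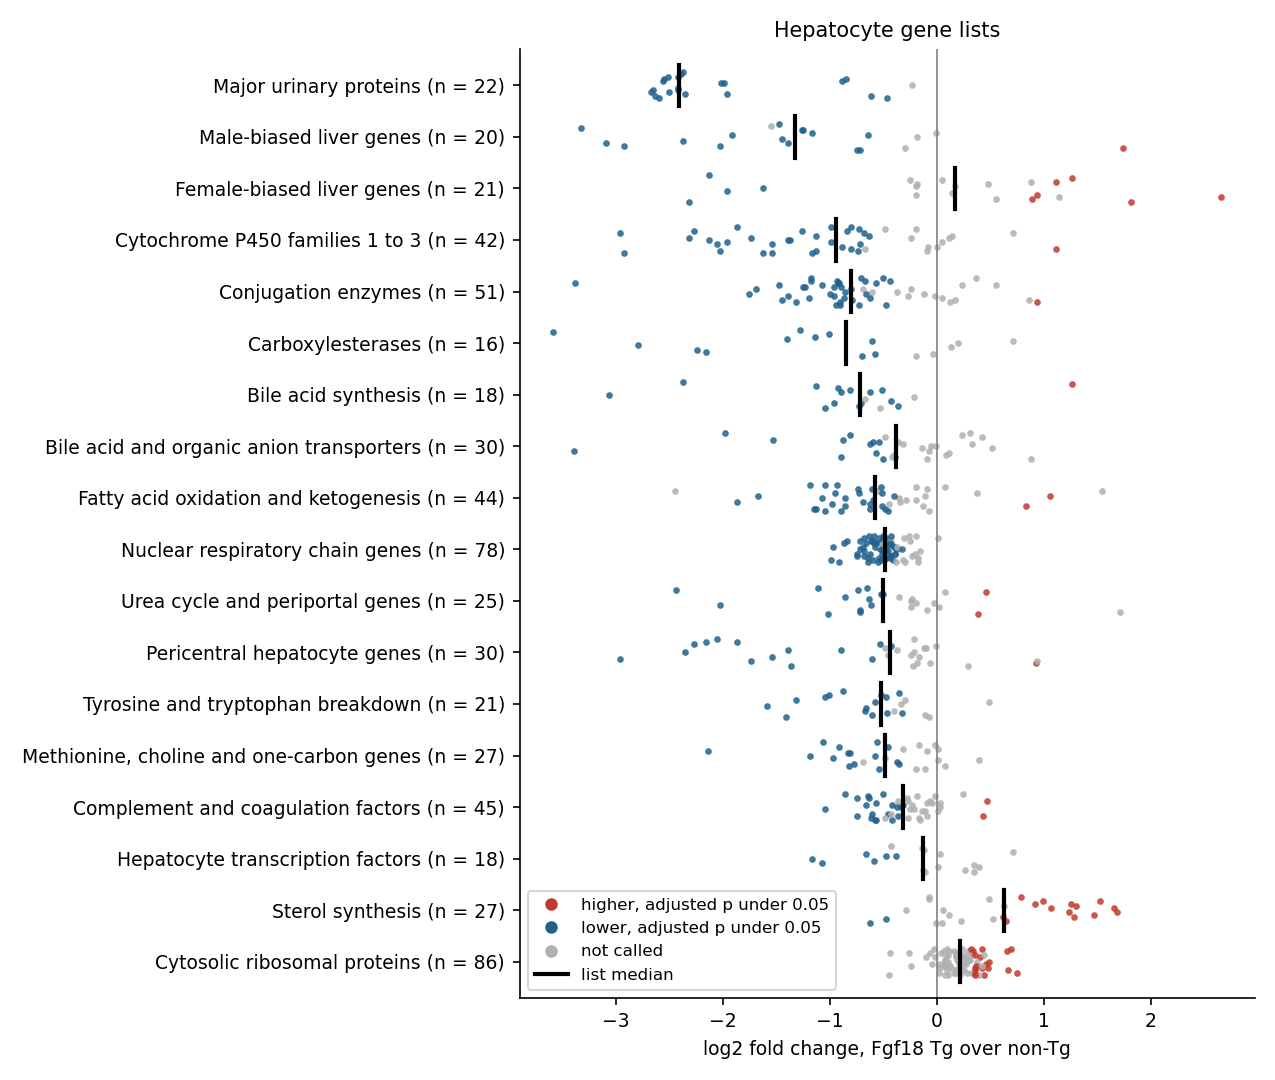
Log2 fold change (Fgf18 Tg over non-Tg) of every tested member of 18 gene lists, with members called higher in red, called lower in blue and not called in grey, and the list median as a black bar. The medians of 15 lists lie below 0, the lowest at -2.40 for major urinary proteins, and those of sterol synthesis (0.63), cytosolic ribosomal proteins (0.22) and female-biased genes (0.17) lie above it.

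Major urinary proteins are pheromone carriers that the liver secretes for excretion in urine, at high levels in males under pulsatile growth hormone. Of 22 tested members 21 fell and 0 rose, with a median of -2.40 against 0.02 for all genes. Mup7 had 7565, 3176 and 4491 normalized counts in Fgf18 Tg livers, against 33396, 28901 and 34445 in non-Tg livers (log2 fold change -2.67 ± 0.34, adjusted p = 0.00373). Mup17 (-2.65 ± 0.29, adjusted p = 0.00105), Mup11 (-2.63 ± 0.22, adjusted p = 3.57e-05) and Mup1 (-2.59 ± 0.31, adjusted p = 0.00214) fell to a like extent. In each of these genes the highest Fgf18 Tg library was below the lowest non-Tg library. These genes are close copies of each other, so the counts of single members are uncertain. Mup3, a more divergent member and the most abundant, had 24980, 23674 and 19145 normalized counts in Fgf18 Tg livers, against 31954, 33022 and 39147 in non-Tg livers (log2 fold change -0.62 ± 0.12, adjusted p = 0.0019). Mup21 also fell less (-0.46 ± 0.12, adjusted p = 0.0101). Mup20, which codes for the male pheromone darcin, did not pass the test, with 19549.8, 15332 and 4844 in Fgf18 Tg livers and 7059.9, 21564 and 17956 in non-Tg livers. Both its groups held a low library, and they overlapped (Mup20 and Mup21 were chosen after their values were seen). With library totals alone 18 of the 22 members were still called lower.

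Genes that male livers express above female livers fell as a group, and genes of the opposite bias were called in both directions. Of 20 male-biased genes 15 fell and 1 rose (median -1.33). Cyp4a12a, a fatty acid hydroxylase that makes 20-HETE, had 118, 41.4 and 81.1 normalized counts in Fgf18 Tg livers, against 592, 901 and 606 in non-Tg livers (log2 fold change -3.09 ± 0.41, adjusted p = 0.00511). Its copy Cyp4a12b had 42.7, 18.9 and 30.6 normalized counts in Fgf18 Tg livers, against 270.1, 427 and 267 in non-Tg livers (log2 fold change -3.32 ± 0.29, adjusted p = 7.19e-05). Cyp7b1, an oxysterol hydroxylase of the acidic bile acid route, had 163, 115 and 101 normalized counts in Fgf18 Tg livers, against 567, 769 and 667 in non-Tg livers (log2 fold change -2.37 ± 0.17, adjusted p = 4.82e-07). None of the 3 genes overlapped between groups. By contrast Slco1a1, an organic anion transporter, had 683, 725 and 725 normalized counts in Fgf18 Tg livers, against 732, 686 and 719.9 in non-Tg livers (log2 fold change -0.00 ± 0.10, adjusted p = 0.981). Hsd3b5, a steroid dehydrogenase, had 497, 469.7 and 372 normalized counts in Fgf18 Tg livers, against 522, 632 and 379.7 in non-Tg livers (log2 fold change -0.19 ± 0.17, adjusted p = 0.482). For these male-biased genes, chosen after their values were seen, the groups overlapped.

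Of 21 female-biased genes 6 rose (28.6%, beside 10.7% of all genes) and 4 fell (19%, beside 11.7%). The median was 0.17, and 4 rose without Fgf18 Tg replicate 3. Library totals alone gave 10 higher and 4 lower, and with no filter for low counts 11 were called higher. Cyp17a1, a steroid hydroxylase and lyase, had 37.3, 36.0 and 39.8 normalized counts in Fgf18 Tg livers, against 4.30, 3.96 and 9.04 in non-Tg livers (log2 fold change 2.66 ± 0.32, adjusted p = 2.04e-05). Abcd2, a peroxisomal fatty acid transporter, had 80.5, 80.1 and 44.4 normalized counts in Fgf18 Tg livers, against 28.0, 15.9 and 15.8 in non-Tg livers (log2 fold change 1.81 ± 0.27, adjusted p = 0.000185). Both genes were higher in every Fgf18 Tg library. The steroid hydroxylases Cyp3a44 (-2.31 ± 0.20, adjusted p = 9.5e-07) and Cyp3a41a (-2.12 ± 0.22, adjusted p = 3.66e-06) moved the other way, as did their close copies Cyp3a16 (-1.96) and Cyp3a41b (-1.63), and reads of these 4 genes cannot be assigned with certainty. Of 17 genes of the growth hormone and STAT5 axis 2 rose (11.8%, beside 10.7% of all genes) and 2 fell (11.8%, beside 11.7%). The list as a whole was thus called about as often as all genes. With library totals alone 6 were called higher and 1 lower. Igfbp1, an insulin-like growth factor binding protein, had 449, 674 and 612 normalized counts in Fgf18 Tg livers, against 165, 71.4 and 68.9 in non-Tg livers (log2 fold change 2.49 ± 0.38, adjusted p = 0.00775). Igfals, which stabilizes circulating IGF1, had 105, 80.1 and 93.3 normalized counts in Fgf18 Tg livers, against 221, 221 and 147 in non-Tg livers (log2 fold change -1.07 ± 0.17, adjusted p = 0.000261). Ghr, the growth hormone receptor, fell less (-0.54 ± 0.12, adjusted p = 0.00339). Igfbp2 rose (0.46 ± 0.12, adjusted p = 0.0124), a call lost without Fgf18 Tg replicate 1 (adjusted p = 0.059), Fgf18 Tg replicate 2 (0.055), non-Tg replicate 2 (0.0745) or non-Tg replicate 3 (0.0724). Socs2, a STAT5 target chosen after its values were seen, had 347, 206 and 78.0 normalized counts in Fgf18 Tg livers, against 29.1, 63.4 and 22.6 in non-Tg livers. All Fgf18 Tg values were above all non-Tg values, but they spread so widely that the test was not passed (log2 fold change 2.55 ± 0.74, adjusted p = 0.0839), and without Fgf18 Tg replicate 3 Socs2 was called (2.89, adjusted p = 0.0113). The STAT5 site letters TTCNNNGAA, searched on both strands in RefSeq promoters (GRCm38.p6, 250 bases before to 50 after the start), were found in 0 of 17 promoters of male-biased genes, which cover 15 of the 20 members, in 2 of 21 promoters of female-biased genes (9.52%) and in 8.3% of all 32851 promoters.

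Cytochrome P450 enzymes of families 1 to 3 oxidize drugs, toxins and steroids. Of 42 tested genes 30 fell and 1 rose, and 19 of those that fell did so by more than 2-fold (median -0.94). Cyp2a5, which oxidizes coumarin and nicotine, had 97.4, 175 and 65.8 normalized counts in Fgf18 Tg livers, against 734, 815 and 1136 in non-Tg livers (log2 fold change -2.96 ± 0.38, adjusted p = 0.00455). Cyp2c55 had 4.21, 9.90 and 3.06 normalized counts in Fgf18 Tg livers, against 46.3, 42.3 and 46.3 in non-Tg livers (log2 fold change -2.92 ± 0.32, adjusted p = 7.66e-06), and the more abundant Cyp2c29 had 345, 416 and 219 normalized counts in Fgf18 Tg livers, against 1637, 1415 and 1720.0 in non-Tg livers (log2 fold change -2.27 ± 0.20, adjusted p = 2.53e-05). Every Fgf18 Tg value of the 3 genes was less than each non-Tg value by a wide margin. Cyp3a11, the main drug-metabolizing member and a PXR target, was chosen after its values were seen and had 2281, 2610.2 and 2542 normalized counts in Fgf18 Tg livers, against 10554, 7205 and 13149.9 in non-Tg livers (log2 fold change -2.06 ± 0.19, adjusted p = 2.42e-05). Cyp2e1, the most abundant member, which oxidizes ethanol, had 9241, 9524 and 7699.6 normalized counts in Fgf18 Tg livers, against 10024, 9470.3 and 11834 in non-Tg livers. Here the groups overlapped (log2 fold change -0.24 ± 0.12, adjusted p = 0.167). With library totals alone 25 members were still called lower.

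The conjugating enzymes, which attach sulfate, glucuronide or glutathione to such products, fell in the same libraries. Of 51 genes 36 fell and 1 rose (median -0.80), and with library totals alone 25 were called lower and 6 higher. Sult5a1, a sulfotransferase, had 2.40, 4.50 and 3.06 normalized counts in Fgf18 Tg livers, against 38.7, 38.3 and 27.1 in non-Tg livers (log2 fold change -3.38 ± 0.36, adjusted p = 6.09e-06). Ephx1, the microsomal epoxide hydrolase, had 188, 206 and 121 normalized counts in Fgf18 Tg livers, against 574, 645 and 475 in non-Tg livers (log2 fold change -1.69 ± 0.18, adjusted p = 1.79e-05). Gstp2, a glutathione transferase, had 1675, 1279 and 1179 normalized counts in Fgf18 Tg livers, against 3405, 4110.1 and 4022 in non-Tg livers (log2 fold change -1.48 ± 0.14, adjusted p = 1.13e-06). Mgst1, the microsomal glutathione transferase and the most abundant member, had 5886, 4825 and 4232 normalized counts in Fgf18 Tg livers, against 9803, 9988 and 9991 in non-Tg livers (log2 fold change -0.99 ± 0.12, adjusted p = 2.22e-05). No Fgf18 Tg library reached a non-Tg library in any of the 4 genes. Ugt3a1 also fell (-1.76 ± 0.31, adjusted p = 0.00305).

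Carboxylesterases hydrolyse ester drugs and lipids. Of 16 members 11 fell and 0 rose, with a median of -0.85, and with library totals alone 8 were called lower and 2 higher. Ces2c had 10.2, 11.7 and 3.06 normalized counts in Fgf18 Tg livers, against 107, 129.5 and 102 in non-Tg livers (log2 fold change -3.58 ± 0.25, adjusted p = 9.73e-08). Ces1g, which hydrolyses triglycerides, had 70.3, 77.4 and 62.7 normalized counts in Fgf18 Tg livers, against 333, 358 and 316 in non-Tg livers (log2 fold change -2.24 ± 0.13, adjusted p = 1.71e-08). Both were separated between groups, and so were Ces1e (-2.16 ± 0.16, adjusted p = 1.24e-07) and the pseudogene Ces2d-ps (-2.79 ± 0.29, adjusted p = 3.63e-06), which can share reads with its coding copies. Ces1c, the plasma carboxylesterase and the most abundant member, had 3495, 4158 and 3495 normalized counts in Fgf18 Tg livers, against 4172, 3527 and 3730.5 in non-Tg livers. Its groups overlapped (log2 fold change -0.04 ± 0.11, adjusted p = 0.856).

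**Figure D3:**
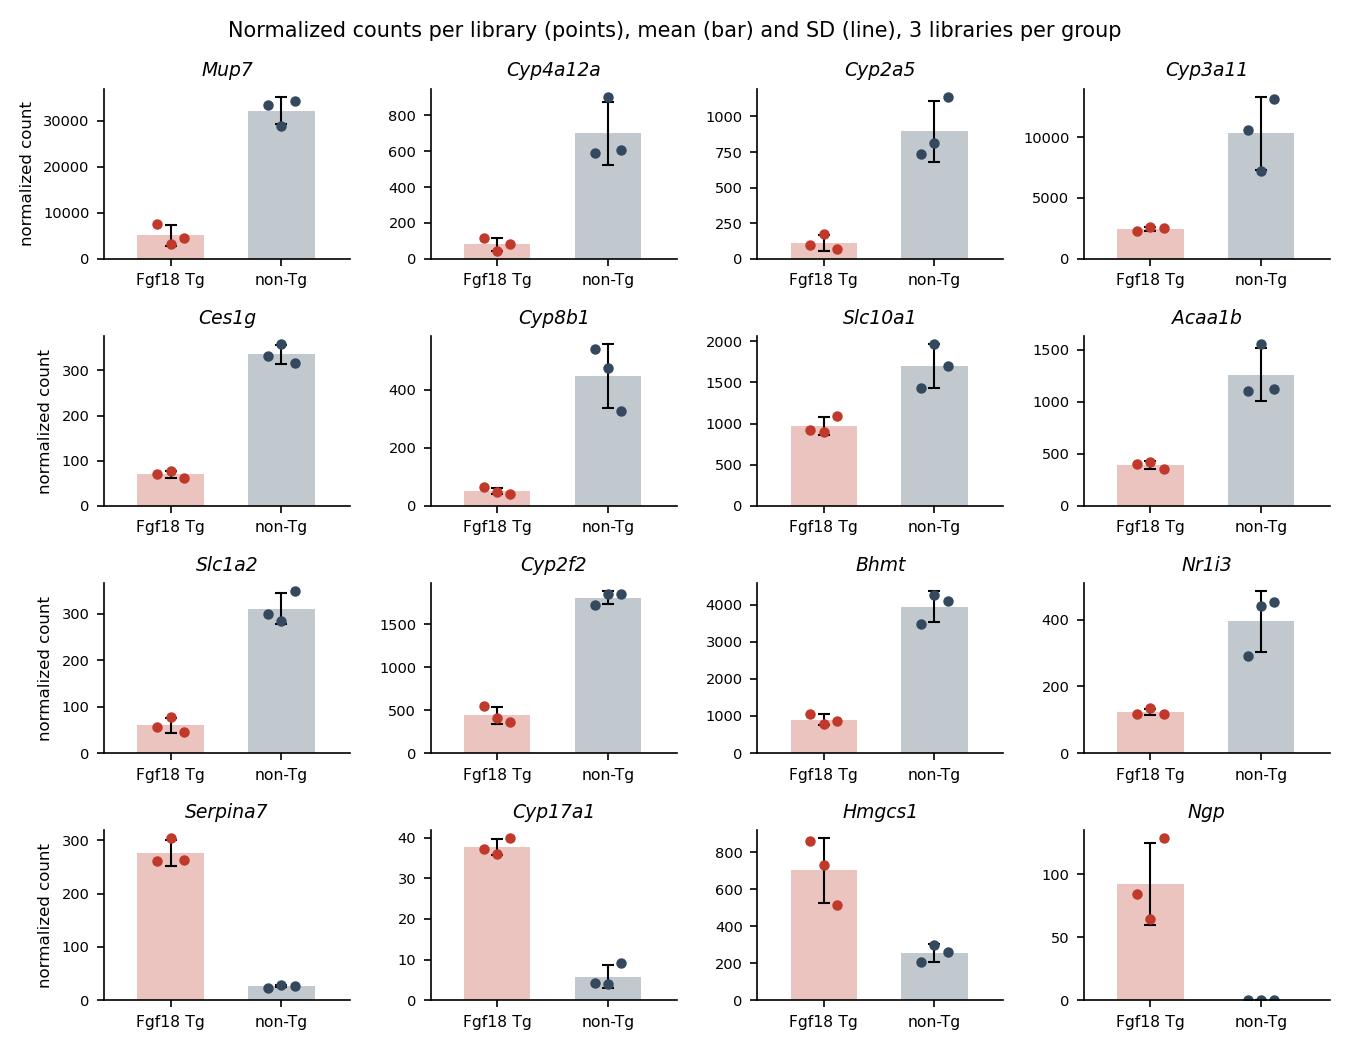
Normalized counts in each library (points), with the mean (bar) and SD (line) of 3 libraries per group, for 16 genes, Fgf18 Tg at the left and non-Tg at the right of each panel. In the panels from Mup7 to Nr1i3 every Fgf18 Tg point lies below every non-Tg point, and in those of Serpina7, Cyp17a1, Hmgcs1 and Ngp every Fgf18 Tg point lies above.

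Bile acid synthesis genes also fell, with the rate-limiting enzyme as an exception. The promoters of 2 bile acid genes that fell are printed because they hold the letters AAGTCCA, an element that the hepatocyte receptor HNF4A binds. The sequences are from RefSeq (GRCm38.p6) and run from 250 bases before to 50 after the start, in lower case, with the matching letters in capitals.
Cyp8b1, chr9:121916256-121916555, minus strand, match 65 bases before the start: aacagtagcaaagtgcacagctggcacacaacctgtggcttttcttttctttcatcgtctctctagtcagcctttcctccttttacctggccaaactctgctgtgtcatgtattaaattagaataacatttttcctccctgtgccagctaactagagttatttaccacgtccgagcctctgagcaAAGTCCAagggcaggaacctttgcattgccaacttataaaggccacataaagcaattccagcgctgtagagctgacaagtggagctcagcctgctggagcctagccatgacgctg
Abcb11, chr2:69342567-69342866, minus strand, match on the opposite strand 71 bases before the start: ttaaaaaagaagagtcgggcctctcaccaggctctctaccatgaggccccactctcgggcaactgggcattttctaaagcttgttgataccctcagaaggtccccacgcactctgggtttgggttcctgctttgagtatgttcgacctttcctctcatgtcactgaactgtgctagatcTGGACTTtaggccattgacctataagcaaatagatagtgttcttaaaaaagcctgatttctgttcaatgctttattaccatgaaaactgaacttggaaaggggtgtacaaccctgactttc
These letters were found on either strand in 2 of 12 promoters of bile acid synthesis genes (16.7%, 11 of 18 members matched), in 2 of 36 promoters of the transporters (5.56%, 23 of 30 members matched) and in 4.17% of all promoters.

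Of the 18 bile acid synthesis genes 14 fell and 1 rose (median -0.72). Cyp8b1, the sterol hydroxylase that makes cholic acid in place of chenodeoxycholic acid, had 64.3, 49.5 and 41.3 normalized counts in Fgf18 Tg livers, against 541, 476 and 327 in non-Tg livers (log2 fold change -3.06 ± 0.21, adjusted p = 8.54e-07). Cyp2a12, a bile acid hydroxylase, had 520.4, 417 and 326 normalized counts in Fgf18 Tg livers, against 873, 952 and 963 in non-Tg livers (log2 fold change -1.13 ± 0.14, adjusted p = 3.22e-05). The peroxisomal side-chain enzymes Hsd17b4 (-1.05 ± 0.13, adjusted p = 2.74e-05) and Scp2 (-0.73 ± 0.10, adjusted p = 8.77e-05) fell by less, and Scp2 was the most abundant member. In all 4 genes, as in Cyp7b1 above, the groups were apart. Cyp7a1, the rate-limiting enzyme of the classic route, was chosen after its values were seen and had 143, 78.3 and 85.7 normalized counts in Fgf18 Tg livers, against 82.9, 137 and 148 in non-Tg livers. The groups overlapped (log2 fold change -0.21 ± 0.28, adjusted p = 0.65). With library totals alone 9 members were called lower.

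Of 30 transporters of bile acids and organic ions 12 fell and 0 rose (median -0.38), beside 6 lower and 9 higher with library totals alone. Slc47a1, which exports organic cations into bile, had 24.6, 27.0 and 21.4 normalized counts in Fgf18 Tg livers, against 96.9, 107 and 90.4 in non-Tg livers (log2 fold change -1.98 ± 0.18, adjusted p = 1.08e-06). Abcg2, an exporter of urate and drugs, had 65.5, 52.2 and 68.8 normalized counts in Fgf18 Tg livers, against 168, 194 and 174 in non-Tg livers (log2 fold change -1.53 ± 0.15, adjusted p = 2.14e-06). Slc10a1, the sodium-dependent bile acid importer of the sinusoidal membrane, had 917, 896 and 1097 normalized counts in Fgf18 Tg livers, against 1429, 1959.9 and 1704 in non-Tg livers (log2 fold change -0.81 ± 0.13, adjusted p = 0.00024). All 3 were below non-Tg in every library. Abcb11, the bile salt export pump, was chosen after its values were seen and had 445, 405 and 346 normalized counts in Fgf18 Tg livers, against 709, 515 and 474 in non-Tg livers (log2 fold change -0.50 ± 0.15, adjusted p = 0.0244). The call of Abcb11 was lost without Fgf18 Tg replicate 2 (adjusted p = 0.0683), without Fgf18 Tg replicate 3 (0.0796) and without non-Tg replicate 1 (0.106).

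Genes of fat oxidation fell by modest amounts. Of 44 genes of fatty acid oxidation and ketogenesis 27 fell and 2 rose (median -0.57), and 13 were called lower with library totals alone. Acaa1b, a peroxisomal thiolase, had 407, 420.2 and 355 normalized counts in Fgf18 Tg livers, against 1103, 1554 and 1124 in non-Tg livers (log2 fold change -1.67 ± 0.14, adjusted p = 4.82e-07). Cpt2, the inner carnitine palmitoyltransferase of mitochondria, had 124, 109.8 and 104 normalized counts in Fgf18 Tg livers, against 242, 263 and 251 in non-Tg livers (log2 fold change -1.15 ± 0.13, adjusted p = 7.66e-06). The groups did not overlap in either gene, nor in Acot1, a thioesterase of low count (-1.86 ± 0.43, adjusted p = 0.00508). Fabp1, the fatty acid binding protein and the most abundant member, had 12361, 11469 and 8209 normalized counts in Fgf18 Tg livers, against 12213, 17246 and 16222 in non-Tg livers (log2 fold change -0.51 ± 0.16, adjusted p = 0.04). Its groups overlapped, and its call was lost without Fgf18 Tg replicate 2 (adjusted p = 0.0677), Fgf18 Tg replicate 3 (0.0854), non-Tg replicate 2 (0.105) or non-Tg replicate 3 (0.105).

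Nuclear genes of the respiratory chain moved together and by little. Of 78 genes 58 fell and 0 rose, 77 had a negative log2 fold change and none fell by more than 2-fold (median -0.49). Cytochrome c (Cycs) had 268, 262 and 219 normalized counts in Fgf18 Tg livers, against 463, 488 and 547 in non-Tg livers (log2 fold change -0.99 ± 0.12, adjusted p = 2.06e-05). Cyc1, of complex III, had 852, 948 and 924 normalized counts in Fgf18 Tg livers, against 1739, 1914 and 1688 in non-Tg livers (log2 fold change -0.97 ± 0.11, adjusted p = 6.86e-06). Ndufb9, of complex I (-0.92 ± 0.11, adjusted p = 1.72e-05), Cox5a, of complex IV (-0.87 ± 0.11, adjusted p = 3.63e-05), and Atp5g3, of the ATP synthase and the most abundant member (-0.72 ± 0.12, adjusted p = 0.000332), fell likewise. The scale decides this list. With library totals alone 5 members were called lower, and their summed share of all counts was 1.33, 1.34 and 1.38% in Fgf18 Tg livers, against 1.40, 1.57 and 1.54% in non-Tg livers. The table lists no genes encoded in mitochondrial DNA.

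Hepatocytes near the portal vein make urea and glucose, and those around the central vein make glutamine and detoxify. Genes of both zones fell. Of 25 periportal genes 13 fell and 2 rose (median -0.51), and with library totals alone 5 were called lower. Etnppl, a phospholyase of ethanolamine phosphate, had 18.6, 30.6 and 52.0 normalized counts in Fgf18 Tg livers, against 166, 131 and 196 in non-Tg livers (log2 fold change -2.44 ± 0.29, adjusted p = 0.000194). Cyp2f2, a portal marker, had 552, 411 and 359 normalized counts in Fgf18 Tg livers, against 1718, 1850.2 and 1847 in non-Tg livers (log2 fold change -2.02 ± 0.14, adjusted p = 9.73e-08). Hal, the histidase, had 236, 243 and 288 normalized counts in Fgf18 Tg livers, against 484, 375 and 676 in non-Tg livers (log2 fold change -1.01 ± 0.19, adjusted p = 0.00251). All 3 genes were apart between groups, and so were the urea cycle genes Otc (-0.86 ± 0.10, adjusted p = 1.74e-05) and Asl (-0.71 ± 0.16, adjusted p = 0.00725), chosen after their values were seen. Pck1, the rate-limiting enzyme of gluconeogenesis and the most abundant member, had 3308, 4303 and 4267 in Fgf18 Tg livers and 3998, 3007 and 5635 in non-Tg livers and did not pass the test (-0.09 ± 0.22, adjusted p = 0.809).

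Of 30 pericentral genes 14 fell and 1 rose (median -0.44), and with library totals alone 11 were called lower. Slc1a2, a glutamate importer of the innermost central hepatocytes, had 57.1, 77.4 and 44.4 normalized counts in Fgf18 Tg livers, against 299, 284 and 348 in non-Tg livers (log2 fold change -2.35 ± 0.17, adjusted p = 9.73e-08). Rhbg, an ammonium transporter of the same cells, had 4.81, 9.00 and 6.12 normalized counts in Fgf18 Tg livers, against 37.7, 30.4 and 19.2 in non-Tg livers (log2 fold change -2.15 ± 0.36, adjusted p = 0.000431). Their highest Fgf18 Tg library stayed under the lowest non-Tg library. Glul, the glutamine synthetase of these cells, was chosen after its values were seen and had 517, 756 and 330.4 normalized counts in Fgf18 Tg livers, against 1369, 1438 and 1340.3 in non-Tg livers (log2 fold change -1.36 ± 0.27, adjusted p = 0.0148). It was lower in 3 of 3 Fgf18 Tg libraries, yet its call was lost without Fgf18 Tg replicate 1 or any 1 of the non-Tg replicates (adjusted p from 0.0534 to 0.0642).

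Amino acid and methyl group metabolism followed. Of 21 genes of tyrosine and tryptophan breakdown 15 fell and 0 rose (median -0.52), and 6 were called lower with library totals alone. Ido2, a tryptophan dioxygenase, had 61.3, 77.4 and 59.7 normalized counts in Fgf18 Tg livers, against 202, 211 and 186 in non-Tg livers (log2 fold change -1.59 ± 0.15, adjusted p = 1.08e-06). Aadat, which makes kynurenic acid, had 88.3, 81.0 and 76.5 normalized counts in Fgf18 Tg livers, against 208, 258 and 194 in non-Tg livers (log2 fold change -1.41 ± 0.14, adjusted p = 3.64e-06). Gcdh, of lysine and tryptophan breakdown (-1.04 ± 0.11, adjusted p = 3.84e-06), and Hgd, of tyrosine breakdown and the most abundant member (-0.67 ± 0.14, adjusted p = 0.00237), fell by less. Of 27 genes of methionine, choline and methyl group metabolism 15 fell and 0 rose (median -0.49), and 9 were called lower with library totals alone. Bhmt, which remakes methionine from homocysteine and the choline product betaine, had 1066, 776 and 853 normalized counts in Fgf18 Tg livers, against 3482, 4254 and 4112 in non-Tg livers (log2 fold change -2.13 ± 0.13, adjusted p = 2.63e-08). Dmgdh (-1.19 ± 0.13, adjusted p = 7.76e-06) and Sardh (-0.97 ± 0.11, adjusted p = 1.09e-05), the next steps of choline breakdown, fell too. Gnmt, which disposes of excess methyl groups, had 1798, 1696 and 2031 normalized counts in Fgf18 Tg livers, against 3144, 3012 and 3549.7 in non-Tg livers (log2 fold change -0.81 ± 0.11, adjusted p = 7.29e-05). Each of these genes was below non-Tg in all 3 Fgf18 Tg libraries.

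Secreted plasma proteins fell more often than they rose on the TMM scale. Of 45 complement and coagulation factors 20 fell and 2 rose (median -0.32), and with library totals alone 2 were called lower and 13 higher. C8g, a part of the membrane attack complex, had 745, 662 and 644 normalized counts in Fgf18 Tg livers, against 1396, 1448 and 1408 in non-Tg livers (log2 fold change -1.05 ± 0.11, adjusted p = 2.75e-06). C9, of the same complex, also fell (-0.86 ± 0.14, adjusted p = 0.000288). The most abundant member, Vtn, an adhesion protein of plasma and matrix, had 6593, 6143 and 6857 in Fgf18 Tg livers and 6868, 6873 and 6750.1 in non-Tg livers, with overlap (-0.06 ± 0.10, adjusted p = 0.7). Positive acute-phase genes are those that inflammation raises in hepatocytes. The list also holds the constitutive Saa4, so the falls below are not all of genes that inflammation raises. Of its 25 tested genes 10 fell (40%, beside 11.7% of all genes) and 3 rose (12%, beside 10.7%). The median was -0.29, and with library totals alone 8 were called lower and 6 higher. Saa4, the constitutive serum amyloid A, had 155, 175 and 202 normalized counts in Fgf18 Tg livers, against 418, 426 and 577 in non-Tg livers (log2 fold change -1.43 ± 0.15, adjusted p = 3.58e-06). Serpina3k, a protease inhibitor and the most abundant member, had 16597, 11565 and 12573 normalized counts in Fgf18 Tg livers, against 24230, 27044 and 27976 in non-Tg livers (log2 fold change -0.96 ± 0.13, adjusted p = 6.92e-05). Saa1, an acute-phase apolipoprotein, had 46.3, 64.8 and 119 normalized counts in Fgf18 Tg livers, against 311, 507 and 298 in non-Tg livers (log2 fold change -2.37 ± 0.40, adjusted p = 0.0108), a call lost without Fgf18 Tg replicate 2 (-2.29, adjusted p = 0.0512). Of the acute-phase genes that rose, Lcn2, an iron-siderophore binder that neutrophils also store, had 75.7, 99.9 and 124 normalized counts in Fgf18 Tg livers, against 12.9, 15.9 and 19.2 in non-Tg livers (log2 fold change 2.59 ± 0.25, adjusted p = 1.58e-06). Cebpd, a transcription factor of this response, had 49.9, 83.7 and 71.9 normalized counts in Fgf18 Tg livers, against 14.0, 14.5 and 13.6 in non-Tg livers (log2 fold change 2.25 ± 0.27, adjusted p = 1.44e-05). Steap4, a metalloreductase, was the last of the 3 (0.95 ± 0.14, adjusted p = 9.06e-05). Each was above every non-Tg library.

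The carriers of plasma moved in both directions. Of 16 members 5 fell (31.2%, beside 11.7% of all genes) and 3 rose (18.8%, beside 10.7%). The median was -0.13, and with library totals alone 2 were called lower and 7 higher. Ttr, the carrier of thyroxine and retinol, had 17065, 18586 and 17005 normalized counts in Fgf18 Tg livers, against 28334, 29295 and 29660 in non-Tg livers (log2 fold change -0.73 ± 0.10, adjusted p = 9.03e-05). Azgp1 (-0.52 ± 0.10, adjusted p = 0.00166), Fetub (-0.50 ± 0.11, adjusted p = 0.00311) and the vitamin D carrier Gc (-0.45 ± 0.11, adjusted p = 0.00511) also fell, beside Igfals. Albumin itself (Alb) had 108862, 113679 and 90786 in Fgf18 Tg livers and 126299, 123845 and 137645 in non-Tg livers, an effect that missed the threshold (-0.31 ± 0.12, adjusted p = 0.0666) although the groups did not overlap. Serpina7, thyroxine-binding globulin, which adult mouse liver makes little of, had 261, 303 and 263 normalized counts in Fgf18 Tg livers, against 23.7, 29.1 and 27.1 in non-Tg livers (log2 fold change 3.37 ± 0.16, adjusted p = 1.49e-09). It was the other carrier of thyroxine to change, in the opposite direction to Ttr, and its groups were far apart. Serpina6, the corticosteroid carrier, had 443, 678 and 581 normalized counts in Fgf18 Tg livers, against 406, 371 and 374 in non-Tg livers (log2 fold change 0.56 ± 0.14, adjusted p = 0.00852), and its call was lost without Fgf18 Tg replicate 2 (0.40, adjusted p = 0.0695). Apoa1, the main protein of high-density lipoprotein and the most abundant gene to rise, had 56515, 53099 and 46352 normalized counts in Fgf18 Tg livers, against 34644, 33836 and 33781 in non-Tg livers (log2 fold change 0.61 ± 0.11, adjusted p = 0.000761). Serpina1a, used with Alb, Apoa1, Ttr and Hnf4a to check the tissue, had 21180 ± 1576 in Fgf18 Tg livers and 28300 ± 1449 in non-Tg livers, and all 5 liver genes were abundant in every library.

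Of 18 transcription factors of the hepatocyte 6 fell (33.3%, beside 11.7% of all genes) and 0 rose (median -0.13). Fewer fell without Fgf18 Tg replicate 2 (3), Fgf18 Tg replicate 3 (4) or non-Tg replicate 1 (4), and with library totals alone 1 was called lower and 5 higher. Hnf4a, a master regulator of hepatocyte genes, had 456, 424 and 369 normalized counts in Fgf18 Tg livers, against 559, 619.8 and 707 in non-Tg livers (log2 fold change -0.59 ± 0.12, adjusted p = 0.00234). Nfil3, a clock-related repressor of low count, fell (-1.17 ± 0.33, adjusted p = 0.0183) but lost its call without Fgf18 Tg replicate 1 (adjusted p = 0.106), Fgf18 Tg replicate 2 (0.0527) or non-Tg replicate 1 (0.109). Hlf, a clock-controlled factor, had 34.3, 53.1 and 52.0 normalized counts in Fgf18 Tg livers, against 68.9, 102 and 114 in non-Tg livers (log2 fold change -1.07 ± 0.22, adjusted p = 0.00232), and Creb3l3, a fasting-induced factor, also fell (-0.66 ± 0.13, adjusted p = 0.00188). Of 19 liver nuclear receptors 4 fell (21.1%, beside 11.7% of all genes) and 2 rose (10.5%, beside 10.7%). Their median was -0.21, and with library totals alone 1 was called lower and 4 higher. Neither rise stood without Fgf18 Tg replicate 1, Fgf18 Tg replicate 3, non-Tg replicate 1 or non-Tg replicate 2. Nr1i3, the receptor CAR that induces Cyp2 genes on exposure to drugs, had 118, 135 and 116 normalized counts in Fgf18 Tg livers, against 291, 440.1 and 453 in non-Tg livers (log2 fold change -1.68 ± 0.16, adjusted p = 2.72e-06). Nr0b2, the receptor SHP that represses bile acid synthesis, had 89.5, 63.0 and 97.9 normalized counts in Fgf18 Tg livers, against 123, 122 and 153 in non-Tg livers (log2 fold change -0.68 ± 0.17, adjusted p = 0.00898). Ppara, the receptor that induces fat oxidation, had 367, 463 and 494 normalized counts in Fgf18 Tg livers, against 546, 599 and 666 in non-Tg livers (log2 fold change -0.46 ± 0.13, adjusted p = 0.0168). All of these were below non-Tg in every library, but the call of Nr0b2 was lost without Fgf18 Tg replicate 2 (adjusted p = 0.0547), and that of Ppara without Fgf18 Tg replicate 1 (0.0939) or non-Tg replicate 3 (0.0562).

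A minority of hepatocyte genes rose. Beside Serpina7, Cyp17a1 and Abcd2 these included Cyp39a1, an oxysterol hydroxylase and the 1 bile acid synthesis gene that rose, which had 45.7, 48.6 and 58.1 normalized counts in Fgf18 Tg livers, against 10.8, 23.8 and 28.3 in non-Tg livers (log2 fold change 1.26 ± 0.27, adjusted p = 0.00316). Cib3, the 1 male-biased gene that rose, had 49.9, 46.8 and 27.5 normalized counts in Fgf18 Tg livers, against 8.61, 18.5 and 12.4 in non-Tg livers (log2 fold change 1.74 ± 0.30, adjusted p = 0.000584). Avpr1a, the vasopressin receptor and the 1 pericentral gene that rose, had 82.9, 96.3 and 79.5 normalized counts in Fgf18 Tg livers, against 54.9, 31.7 and 48.6 in non-Tg livers (log2 fold change 0.92 ± 0.19, adjusted p = 0.00247). No library of 1 group reached the other group. A pair of enzymes of polyunsaturated fatty acid synthesis, the desaturase Fads1 (0.77 ± 0.14, adjusted p = 0.000804) and the elongase Elovl2 (0.77 ± 0.10, adjusted p = 5.07e-05), rose as well. Cyp2a4, the 1 P450 that rose, had 189, 368 and 211 normalized counts in Fgf18 Tg livers, against 91.5, 118 and 146 in non-Tg livers (log2 fold change 1.12 ± 0.30, adjusted p = 0.0329), and Sult1a1, the 1 conjugating enzyme, had 925, 869 and 806 normalized counts in Fgf18 Tg livers, against 355, 365 and 642 in non-Tg livers (log2 fold change 0.93 ± 0.21, adjusted p = 0.0137). Sult1a1 lost its call without Fgf18 Tg replicate 3 (adjusted p = 0.0584). Cyp2a4, a close copy of Cyp2a5, lost it without Fgf18 Tg replicate 3 (0.0682), non-Tg replicate 1 (0.0956) or non-Tg replicate 2 (0.131).

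Of the 7 genes that rose in the lists of complement factors, fat oxidation, nuclear receptors and periportal genes, 6 lost their call without at least 1 of the libraries. Kng2, a kininogen (0.43 ± 0.11, adjusted p = 0.00736), kept its call without any 1 library. Vnn1, a pantetheinase of the fat oxidation list (0.83 ± 0.24, adjusted p = 0.0196), lost it without Fgf18 Tg replicate 1 (adjusted p = 0.0578), Fgf18 Tg replicate 2 (0.0739), non-Tg replicate 1 (0.108) or non-Tg replicate 2 (0.0638). Ppargc1a, a coactivator of that list and of the nuclear receptors (1.05 ± 0.34, adjusted p = 0.0354), lost it without Fgf18 Tg replicate 1 (0.108), Fgf18 Tg replicate 3 (0.089), non-Tg replicate 1 (0.141) or non-Tg replicate 2 (0.112). Agxt, which clears glyoxylate in the periportal list (0.38 ± 0.11, adjusted p = 0.0212), lost it without Fgf18 Tg replicate 2 (0.0855), non-Tg replicate 2 (0.0572) or non-Tg replicate 3 (0.127). Masp1, a complement protease (0.47 ± 0.15, adjusted p = 0.0335), kept it only without non-Tg replicate 1 (0.0584 to 0.167 otherwise), and Thra, a thyroid hormone receptor (0.68 ± 0.22, adjusted p = 0.0323), only without Fgf18 Tg replicate 2 (0.0671 to 0.105 otherwise). Ctsc, a lysosomal protease of the periportal list (0.46 ± 0.15, adjusted p = 0.034), lost it without any 1 of the 6 libraries (0.0606 to 0.104).

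Sterol synthesis rose as a program. The promoter of Hmgcs1 is printed because it was the 1 promoter of the list with the sterol regulatory element letters TCACNCCAC, found in 1 of 25 promoters of the list (4%, 19 of 27 members matched) and in 1.24% of all promoters on either strand. The letters are in capitals.
Hmgcs1, chr13:119690101-119690400, plus strand, GRCm38.p6, match 137 bases before the start: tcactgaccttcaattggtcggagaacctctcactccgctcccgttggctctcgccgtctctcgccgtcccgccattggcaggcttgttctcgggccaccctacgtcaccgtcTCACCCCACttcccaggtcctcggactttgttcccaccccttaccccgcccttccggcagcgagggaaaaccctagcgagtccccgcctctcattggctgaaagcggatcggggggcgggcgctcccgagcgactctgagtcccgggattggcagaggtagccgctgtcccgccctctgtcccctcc
Hmgcs1, the synthase that opens the pathway, had 858, 728 and 515 normalized counts in Fgf18 Tg livers, against 206, 300.0 and 259.9 in non-Tg livers (log2 fold change 1.47 ± 0.19, adjusted p = 0.000247). Of 27 genes 14 rose and 2 fell (median 0.63), and with library totals alone 22 were called higher and 0 lower. Sqle, the epoxidase that is a control point of the pathway (1.68 ± 0.22, adjusted p = 4.92e-05), Lss, which closes the sterol rings (1.65 ± 0.21, adjusted p = 2.5e-05), and Pmvk, a mevalonate pathway kinase (1.53 ± 0.18, adjusted p = 1.28e-05), rose with it. Sc5d, a late enzyme and the most abundant member, had 1002, 856 and 859.6 in Fgf18 Tg livers and 864, 814 and 835 in non-Tg livers, with overlap (0.11 ± 0.11, adjusted p = 0.489). Ebp, the sterol isomerase, fell (-0.47 ± 0.11, adjusted p = 0.00594).

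Cytosolic ribosomal protein genes were slightly higher. Of 86 genes 20 rose and 0 fell, and none rose by more than 2-fold (median 0.22). From 8 to 12 rose without Fgf18 Tg replicate 1 (12), Fgf18 Tg replicate 2 (9), non-Tg replicate 1 (9), non-Tg replicate 2 (8) or non-Tg replicate 3 (11), and 79 were called higher with library totals alone. Rps12 had 559, 586 and 635 normalized counts in Fgf18 Tg livers, against 351, 362 and 341 in non-Tg livers (log2 fold change 0.75 ± 0.11, adjusted p = 0.000102). Rpl38 rose (0.69 ± 0.16, adjusted p = 0.00518), and the most abundant, Rpl4, did not pass the test (0.07 ± 0.10, adjusted p = 0.644). Their summed share of all counts was 2.47, 2.60 and 2.63% in Fgf18 Tg livers, against 1.63, 1.79 and 1.72% in non-Tg livers, with no overlap.

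Markers of other liver cells moved in the same 6 libraries, and their part in the falls of hepatocyte genes was not tested. The plot of other cell lists gives every tested member. In any of these lists, members with few counts in non-Tg livers could be tested only through their Fgf18 Tg counts. The shares that rose and the medians thus depend in part on the filter. The summed normalized count of quiescent stellate cell markers ranged from 1766 to 2092 in Fgf18 Tg livers and from 550 to 753 in non-Tg livers, and that of activated stellate cell markers from 1408 to 1834 in Fgf18 Tg livers and from 296 to 385 in non-Tg livers.

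**Figure D4:**
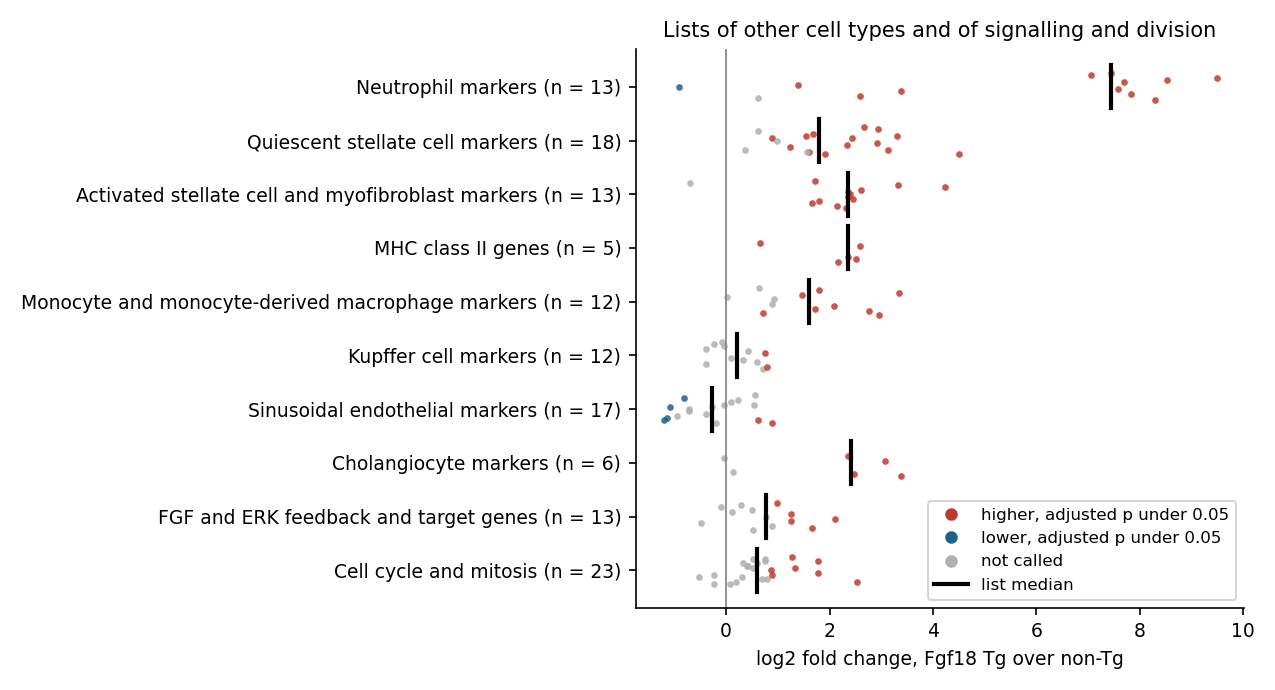
Log2 fold change (Fgf18 Tg over non-Tg) of every tested member of 10 lists of other cell types, FGF and ERK targets and cell division, with members called higher in red, called lower in blue and not called in grey, and the list median as a black bar. The median of the 13 neutrophil markers lies at 7.45 and that of sinusoidal endothelial markers at -0.28.

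Neutrophil granule genes were the most changed. Of 25 neutrophil markers with any count 13 could be tested, of which 11 rose and 1 fell. The median log2 fold change of the 13 was 7.45, or 4.49 with genes absent from non-Tg libraries at their bound. Members absent from non-Tg libraries could be tested only because they were high in Fgf18 Tg livers. The share that rose and the median thus depend in part on the filter. Ltf, lactoferrin, was at least 38.5-fold higher, Camp, the cathelicidin, at least 34.2-fold, Mpo, myeloperoxidase, at least 24.2-fold, and Elane, neutrophil elastase, at least 22.5-fold, each with 0 counts in all 3 non-Tg libraries. S100a8, a subunit of calprotectin, had 139, 82 and 97 counts in Fgf18 Tg libraries, against 1, 0 and 0 in non-Tg libraries, a ratio of 238 (95% interval 42.5 to 9445). Pglyrp1, a granule protein, had 46, 28 and 20 counts in Fgf18 Tg libraries, against 1, 0 and 0 in non-Tg libraries, a ratio of 70.5 (95% interval 12.3 to 2813). These transcripts were present in all 3 Fgf18 Tg livers. Mpo and Elane are made by immature cells of this lineage. Cxcr2, the chemokine receptor of circulating neutrophils, was chosen after its values were seen and had 24.6, 23.4 and 27.5 normalized counts in Fgf18 Tg livers, against 18.3, 11.9 and 18.1 in non-Tg livers, which did not pass the test (log2 fold change 0.61 ± 0.27, adjusted p = 0.126). Wfdc21 was the 1 member that fell (-0.92 ± 0.14, adjusted p = 0.000196).

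Stellate cells store retinoids and make matrix when activated. Of 18 quiescent stellate cell markers 14 rose and 0 fell (median 1.79). Adamtsl2 had 91.3, 77.4 and 106 normalized counts in Fgf18 Tg livers, against 2.15, 3.96 and 5.65 in non-Tg livers (log2 fold change 4.49 ± 0.30, adjusted p = 5.74e-08). Tcf21, a transcription factor of these cells, had 74.5, 74.7 and 42.8 normalized counts in Fgf18 Tg livers, against 4.30, 9.25 and 6.78 in non-Tg livers (log2 fold change 3.30 ± 0.32, adjusted p = 2.04e-06). Cygb, cytoglobin, had 72.1, 72.9 and 97.9 normalized counts in Fgf18 Tg livers, against 7.53, 9.25 and 10.2 in non-Tg livers (log2 fold change 3.13 ± 0.26, adjusted p = 4.09e-07). Decorin (Dcn), the most abundant member, had 493, 515 and 606 normalized counts in Fgf18 Tg livers, against 156, 139 and 207 in non-Tg livers (log2 fold change 1.68 ± 0.15, adjusted p = 7.36e-07). No value of these 4 genes was shared between groups. Of 21 activated stellate cell and myofibroblast markers with any count 13 could be tested, and of these 12 rose and 0 fell (median 2.36). In both stellate cell lists, members with few counts in non-Tg livers passed the filter only through Fgf18 Tg counts, which favours rises. Loxl1, a collagen cross-linking enzyme, had 40.3, 37.8 and 38.2 normalized counts in Fgf18 Tg livers, against 1.08, 1.32 and 3.39 in non-Tg livers (log2 fold change 4.24 ± 0.39, adjusted p = 1.24e-06). Among other mesenchymal genes, the integrin subunit Itga8 had 139, 181 and 139 normalized counts in Fgf18 Tg livers, against 3.23, 2.64 and 1.13 in non-Tg livers (log2 fold change 5.96 ± 0.30, adjusted p = 2.5e-09). Pdgfrb, the growth factor receptor of activated cells, had 57.1, 69.3 and 87.2 normalized counts in Fgf18 Tg livers, against 11.8, 13.2 and 12.4 in non-Tg livers (log2 fold change 2.46 ± 0.25, adjusted p = 3.45e-06). By contrast Acta2, smooth muscle actin, was too low to test, with 3.61, 12.6 and 10.7 in Fgf18 Tg livers and 3.23, 2.64 and 4.52 in non-Tg livers, and so was Timp1, with 0, 0 and 1 counts in Fgf18 Tg libraries, against 0, 1 and 0 in non-Tg libraries (both chosen after their values were seen).

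Antigen-presenting and monocyte genes rose. Of 10 genes of MHC class II with any count 5 could be tested, and all 5 rose (median 2.35). H2-Aa had 91.3, 108 and 88.7 normalized counts in Fgf18 Tg livers, against 22.6, 13.2 and 11.3 in non-Tg livers (log2 fold change 2.59 ± 0.23, adjusted p = 9.5e-07). Cd74, the invariant chain and the most abundant, had 277, 296 and 209.5 normalized counts in Fgf18 Tg livers, against 75.3, 64.8 and 36.2 in non-Tg livers (log2 fold change 2.16 ± 0.22, adjusted p = 2.04e-05). H2-Ab1 (2.50 ± 0.22, adjusted p = 6.74e-07) and H2-Eb1 (2.35 ± 0.24, adjusted p = 3.59e-06) rose by as much. H2-DMa, which loads peptides, rose less (0.66 ± 0.19, adjusted p = 0.0197) and lost its call without Fgf18 Tg replicate 1 (adjusted p = 0.127), Fgf18 Tg replicate 2 (0.0513) or non-Tg replicate 2 (0.1). Of 23 monocyte and monocyte-derived macrophage markers with any count 12 could be tested, and of these 8 rose and 0 fell (median 1.60). Here and for MHC class II, a member with few counts in non-Tg livers could be tested only through Fgf18 Tg counts, which favours rises. Ly6c2 (3.35 ± 0.46, adjusted p = 6.07e-05), Ccr2, the receptor that brings monocytes into tissue (2.95 ± 0.41, adjusted p = 7.25e-05), and Cx3cr1 (2.77 ± 0.47, adjusted p = 0.000482) rose, as did lysozyme (Lyz2), the most abundant, which had 161, 160.2 and 151 normalized counts in Fgf18 Tg livers, against 38.7, 33.0 and 38.4 in non-Tg livers (log2 fold change 2.10 ± 0.16, adjusted p = 1.31e-07). Of 12 markers of Kupffer cells, the resident macrophages, 2 rose (16.7%, beside 10.7% of all genes) and 0 fell (median 0.21). With library totals alone 7 were called higher, and 6 with totals that leave out the major urinary protein genes. The 2 that rose on the TMM scale were the complement genes C1qa (0.76 ± 0.22, adjusted p = 0.0202) and C1qb (0.79 ± 0.23, adjusted p = 0.028). C1qa lost its call without Fgf18 Tg replicate 1 (adjusted p = 0.0728), non-Tg replicate 2 (0.0793) or non-Tg replicate 3 (0.0667), and C1qb without Fgf18 Tg replicate 2 (0.0984), Fgf18 Tg replicate 3 (0.0813), non-Tg replicate 2 (0.0873) or non-Tg replicate 3 (0.113). Clec4f, which these cells alone express in mouse liver (chosen after its values were seen), had 72.7, 86.4 and 116 normalized counts in Fgf18 Tg livers, against 136, 108 and 105 in non-Tg livers, with overlap (log2 fold change -0.39 ± 0.18, adjusted p = 0.129). Without Fgf18 Tg replicate 3 it was called lower (-0.56, adjusted p = 0.0325).

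Sinusoidal endothelial markers were called in both directions, and most cholangiocyte markers that could be tested rose. Of 17 sinusoidal endothelial markers 4 fell (23.5%, beside 11.7% of all genes) and 2 rose (11.8%, beside 10.7%). Their median was -0.28, and 2 fell without Fgf18 Tg replicate 1. The balance turned with library totals alone, where 1 was called lower, 4 were called higher and the median was 0.12. Dnase1l3, a DNA-degrading enzyme of these cells, had 18.0, 27.0 and 18.4 normalized counts in Fgf18 Tg livers, against 49.5, 46.3 and 50.9 in non-Tg livers (log2 fold change -1.21 ± 0.23, adjusted p = 0.00104). Clec4g, a lectin of these cells, fell too (-1.09 ± 0.27, adjusted p = 0.00809). F8, coagulation factor VIII (-1.15), and Kdr, a receptor of VEGF (-0.81), fell, and the scavenger receptors Stab1 (0.62) and Cd36 (0.89) rose. F8 lost its call without Fgf18 Tg replicate 1 (adjusted p = 0.0673), Fgf18 Tg replicate 2 (0.0825) or non-Tg replicate 2 (0.0873), and Kdr without Fgf18 Tg replicate 1 (0.0813), Fgf18 Tg replicate 2 (0.0853) or non-Tg replicate 3 (0.0734). Stab1 kept it only without non-Tg replicate 3 (0.0731 to 0.161 otherwise), and Cd36 lost it without Fgf18 Tg replicate 2 (0.0701), Fgf18 Tg replicate 3 (0.0972), non-Tg replicate 1 (0.157) or non-Tg replicate 2 (0.0514). Ehd3, the most abundant member, had 76.3, 89.1 and 61.2 in Fgf18 Tg livers and 43.0, 55.5 and 61.0 in non-Tg livers and did not pass the test (0.53 ± 0.19, adjusted p = 0.0525), but was called without Fgf18 Tg replicate 3 (0.63, adjusted p = 0.0317). Of 19 cholangiocyte markers with any count 6 could be tested, by a filter that members near 0 in non-Tg livers pass only through Fgf18 Tg counts. Of the 6 tested 4 rose (66.7%, beside 10.7% of all genes) and 0 fell (median 2.41). Bicc1 (3.39 ± 0.32, adjusted p = 1.26e-06) and Cd24a (3.08 ± 0.49, adjusted p = 0.000241) did so by most, and Spp1, osteopontin, was the most abundant, with 593, 407 and 636 normalized counts in Fgf18 Tg livers, against 96.9, 83.3 and 136 in non-Tg livers (log2 fold change 2.36 ± 0.21, adjusted p = 1.19e-05). Epcam also rose, with 13.2, 12.6 and 15.3 in Fgf18 Tg livers and 0, 3.96 and 3.39 in non-Tg livers. The defining keratins of bile ducts were at the floor in both groups, so that their change could not be measured at this depth. Krt19 had 2, 4 and 0 counts in Fgf18 Tg libraries, against 3, 2 and 2 in non-Tg libraries. Krt7 had 2, 3 and 1 counts in Fgf18 Tg libraries, against 1, 2 and 1 in non-Tg libraries (Epcam, Krt19 and Krt7 were chosen after their values were seen). By quantitative PCR and by staining of the protein, the study found Krt19 increased in Fgf18 Tg livers.

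Genes induced by FGF receptor and ERK signalling rose in part. Of 13 tested members 5 rose and 0 fell (median 0.78), and 10 were called higher with library totals alone. Spry1, an inhibitor of receptor tyrosine kinase signalling that was chosen after its values were seen, had 13.2, 15.3 and 12.2 normalized counts in Fgf18 Tg livers, against 3.23, 1.32 and 4.52 in non-Tg livers (log2 fold change 2.10 ± 0.45, adjusted p = 0.00317). Egr1, an immediate early gene, had 43.9, 26.1 and 67.3 normalized counts in Fgf18 Tg livers, against 8.61, 21.1 and 12.4 in non-Tg livers (log2 fold change 1.66 ± 0.38, adjusted p = 0.00794). The inhibitors Spred1 (1.26 ± 0.28, adjusted p = 0.00408), Dusp6, an ERK phosphatase (1.25 ± 0.29, adjusted p = 0.00813), and Spry2 (0.99 ± 0.22, adjusted p = 0.00345) rose as well. In each of the 5 genes the Fgf18 Tg libraries were above the non-Tg libraries. Cyclin D1 (Ccnd1), the most abundant member, had 172, 188 and 102 in Fgf18 Tg livers and 92.6, 135 and 104 in non-Tg livers, with overlap (0.52 ± 0.21, adjusted p = 0.0946), and was called without Fgf18 Tg replicate 3 (0.71, adjusted p = 0.0059).

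Of 23 tested genes of the cell cycle and mitosis 7 rose and 0 fell (median 0.60), and 4 rose without Fgf18 Tg replicate 2, non-Tg replicate 1 or non-Tg replicate 3. Library totals alone gave 17 higher, and 12 were called higher with totals that leave out the major urinary protein genes. Cyclin D2 (Ccnd2) had 69.7, 67.5 and 47.4 normalized counts in Fgf18 Tg livers, against 9.69, 9.25 and 13.6 in non-Tg livers (log2 fold change 2.53 ± 0.26, adjusted p = 3.7e-06). Its groups were far apart. Mki67, the proliferation antigen, had 19.2, 22.5 and 21.4 normalized counts in Fgf18 Tg livers, against 4.30, 17.2 and 4.52 in non-Tg livers (log2 fold change 1.33 ± 0.41, adjusted p = 0.0288). Of its non-Tg values 1 was near the Fgf18 Tg values, and without that library (non-Tg replicate 2) the log2 fold change was 2.19 (adjusted p = 0.0019), while its call was lost without any 1 of the other 5 libraries. Tubb5, the most abundant member called, also rose (0.88 ± 0.15, adjusted p = 0.000393).

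The CDE diet experiment compares Cflar LKO with Cflar FF livers, both on the CDE diet. It shows which of these changes also occurred with Cflar loss on that diet, and it does not measure the effect of the diet. There 2652 of 17036 genes tested rose (15.6%) and 2240 fell (13.1%) in Cflar LKO livers against Cflar FF livers. Of the 9968 genes tested in both experiments 1256 fell in Fgf18 Tg livers and 1909 in Cflar LKO livers. Of the 1256 genes 681 also fell in Cflar LKO livers, which is 54.2% of the genes lower in Fgf18 Tg and 35.7% of the genes lower in Cflar LKO livers. Another 561 were not called in Cflar LKO livers and 14 were higher. Among the genes not called in Fgf18 Tg livers, 15.3% fell in Cflar LKO livers. The difference of the effects (Fgf18 Tg over non-Tg, minus Cflar LKO over Cflar FF) was tested in a joint fit of all 12 libraries, in which 432 of 13956 genes differed (3.1%). Of the 1256 genes that fell, 94 had a lower and 25 a higher effect in Fgf18 Tg livers. The 1256 were chosen by their fall in these same libraries, which by itself favours lower effects. Of all 13956 genes 248 had a higher and 184 a lower effect. Sex, diet, age and genotype differ between the experiments and cannot be told apart. The test has less power than those above, recovering 30% of simulated 2-fold and 78% of 4-fold differences, planted only in genes above a minimum mean count. It also rests on a library of Cflar FF (replicate 2) that stood apart from its group, without which 611 genes had a higher and 464 a lower effect in Fgf18 Tg livers, in place of 248 and 184. The calls of the differences named next were kept without any 1 of the 12 libraries.

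A set of hepatocyte genes fell by more in Fgf18 Tg livers, and several of them rose in Cflar LKO livers. Ces2c, at -3.58 in Fgf18 Tg livers, was at 1.68 in Cflar LKO livers (difference -5.36, adjusted p = 5.43e-06). Ces1g was at -2.24 in Fgf18 Tg livers and 0.99 in Cflar LKO livers (difference -3.33, adjusted p = 7.77e-06), and Ces2d-ps followed (difference -4.53, adjusted p = 2e-06). Rarres1 was at -3.22 and 0.72 in the same order (difference -4.04, adjusted p = 2.31e-08). Transporters of central hepatocytes also had lower effects in Fgf18 Tg livers, with Rhbg at -2.15 in Fgf18 Tg and 1.89 in Cflar LKO livers (difference -4.13, adjusted p = 0.00129) and Slc1a2 at -2.35 and -0.41 (difference -2.04, adjusted p = 0.000405). Among enzymes and exporters, the differences were -4.13, adjusted p = 0.00401 for Cyp2c55, -3.64, adjusted p = 0.000742 for Cyp2a5, -3.96, adjusted p = 0.00133 for Cyp4a12b, -3.22, adjusted p = 0.00146 for Sult5a1, -1.61, adjusted p = 0.00026 for Abcg2 and -1.10, adjusted p = 0.0015 for Cpt2. The transcript 9130409I23Rik, near 0 in Fgf18 Tg livers, was at 0.12 in Cflar LKO livers (difference -5.44, adjusted p = 0.00129).

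Other genes fell in Cflar LKO livers but rose in Fgf18 Tg livers. Serpina7, which missed the threshold in Cflar LKO livers (adjusted p = 0.0531), was at 3.37 in Fgf18 Tg livers and -1.72 in Cflar LKO livers (difference 5.00, adjusted p = 0.00444). Avpr1a was at 0.92 and -3.34 (difference 4.18, adjusted p = 0.00434), Abcd2 at 1.81 and -1.53 (difference 3.25, adjusted p = 0.000327), and Cyp39a1 at 1.26 and -1.12 (difference 2.30, adjusted p = 0.00127), each with the Fgf18 Tg value before that of Cflar LKO. The fatty acid enzymes Fads1 (difference 2.30, adjusted p = 0.000628) and Elovl2 (difference 1.70, adjusted p = 0.000169) and the sterol pathway kinase Pmvk (difference 2.56, adjusted p = 0.000739) did so too. Ces1c fell in Cflar LKO livers and was not called in Fgf18 Tg livers (difference 1.46, adjusted p = 0.00216). Sterol synthesis as a list had 14 genes higher in Fgf18 Tg livers and 10 of 27 lower in Cflar LKO livers, and 8 of the 27 had a higher effect in Fgf18 Tg livers. Mup3 fell in both but by more in Cflar LKO livers (difference 1.88, adjusted p = 0.00697). Lepr, chosen after its values were seen, had a higher effect in Fgf18 Tg livers (difference 2.82, adjusted p = 0.00101), and so had the neutrophil gene S100a9 (difference 6.86, adjusted p = 0.00375).

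For other genes a difference was not shown. Cyp8b1 was at -3.06 in Fgf18 Tg and -2.43 in Cflar LKO livers (difference -0.73, adjusted p = 0.575). Cyp2f2 was at -2.02 and -3.48 (difference 1.36, adjusted p = 0.313), Bhmt at -2.13 and -1.23 (difference -0.99, adjusted p = 0.0736), and Nr1i3 at -1.68 and -0.66 (difference -1.10, adjusted p = 0.138).

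**Figure D5:**
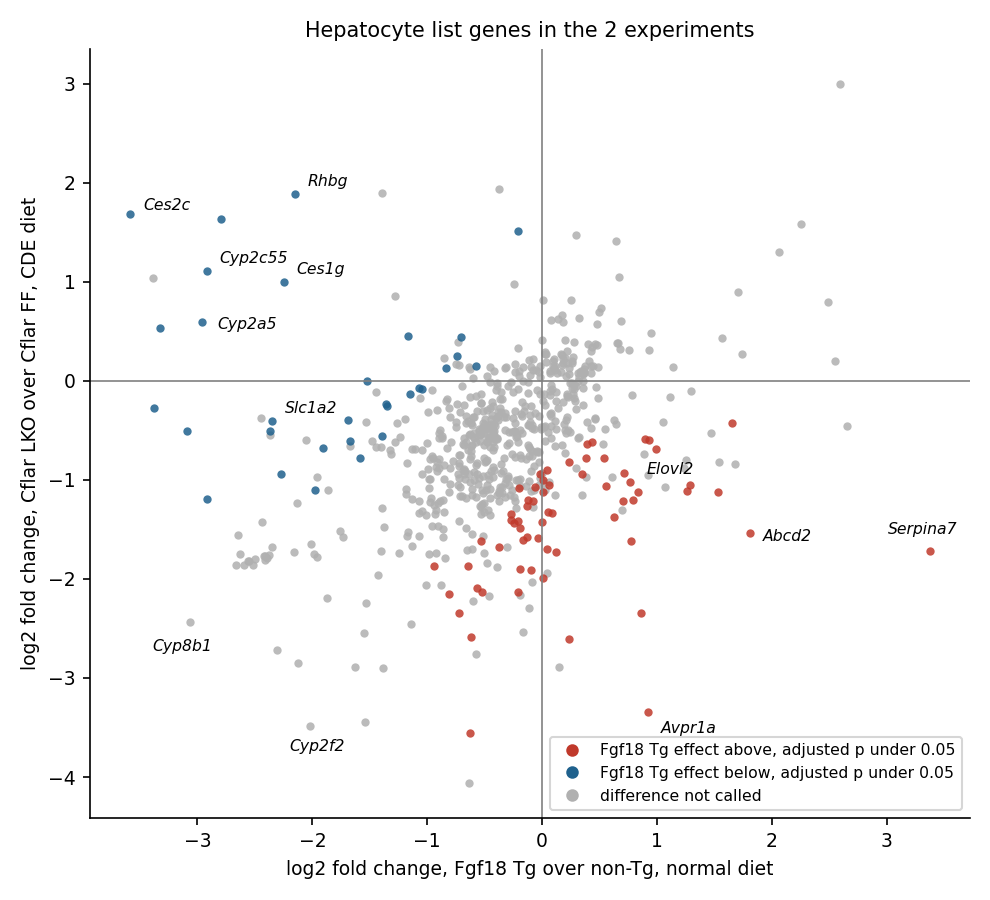
Log2 fold change of 669 genes of the hepatocyte lists in Fgf18 Tg over non-Tg livers on the normal diet (horizontal) and in Cflar LKO over Cflar FF livers on the CDE diet (vertical), with genes whose effects differed in red (63, higher effect in Fgf18 Tg) or blue (31, lower effect). Ces2c, Ces1g and Rhbg lie at the upper left and Serpina7, Abcd2 and Avpr1a at the lower right.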

How the data were processed

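Whole-liver RNA of 3 Fgf18 Tg and 3 non-Tg mice on the normal diet was compared, and that of 3 Cflar LKO and 3 Cflar FF mice on the CDE diet was used for the difference of effects only. Per the labels and the study's methods, polyadenylated RNA was captured on oligo-dT beads, amplified by PCR without molecular identifiers and sequenced on a NovaSeq instrument. The submitters' processing notes name GRCm39 and Bowtie2, the study's methods name TCC-GUI for normalization, and the read counter and gene annotation are not given in the sources used here. The deposited read counts are whole numbers per gene symbol, not normalized. The authors' normalized values, a signal that equals these counts divided by 1 factor per library, were used for an alternative only. All 12 columns of per-sample values were matched to samples, and 0 were left over. The table gives no coordinates, so that positions are given for RefSeq promoters only (GRCm38.p6, 32851 promoters).

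Read counts were analysed in R 4.3.3 with edgeR 4.0.16 on the 6 normal diet libraries (TMM factors from 1.11 to 1.19 in Fgf18 Tg and from 0.854 to 0.896 in non-Tg libraries, filterByExpr with a minimum count of 10 and a minimum total of 15, robust quasi-likelihood fit, Benjamini-Hochberg adjustment over all genes tested, threshold 0.05). For normalized counts, each count was divided by the library's effective size (library size times TMM factor) and multiplied by the average effective size. The difference of effects was fitted on all 12 libraries over the 13956 genes tested in a joint fit of names found in both tables, and fold changes of the CDE diet experiment come from its own fit, so that a difference need not equal the subtraction of the 2 effects. Tested on simulated data of 10909 genes, the comparison of Fgf18 Tg with non-Tg livers recovered 78.4% of 2-fold and 98.8% of 4-fold changes. The changes were planted only in genes above a minimum mean count, with rises and falls in equal numbers. Recovery among genes of low count was therefore not measured. Alternatives were RLE factors, library size with and without the major urinary protein genes, the authors' factors, DESeq2 1.42.0, limma-trend 3.58.1 on log2(normalized value + 1), no filter, 10 counts in 3 libraries, a replicate block, an adjusted p under 0.01 and leaving out each library.

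The livers, gene lists and named genes were chosen with earlier results of these data known. Named were Fgf18, Xist, Ddx3y, the FGF receptors, the 15 genes per direction with the largest change among those called, without overlap and averaging 20 or more normalized counts in whichever group was higher, and of each list described up to 4 called members with the largest change in its main direction, up to 2 in the other and the most abundant. Other genes are marked as chosen after their values were seen, or named where a count was 5 or fewer. Of 57 lists 32 are described. Floors of 3 counts and 95% intervals cover counting error only. A few further genes are not reported here.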

Additional observations from a re-analysis of the deposited data

How the results depend on the processing

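The counts of genes called depended on the scale and the tool. In place of 1169 genes called higher, 3632 were called with library totals alone, 2041 with library totals that leave out the major urinary protein genes, 726 with DESeq2 and 646 at an adjusted p under 0.01. In place of 1275 called lower, the same settings gave 344, 578, 796 and 732. Past 2-fold, library totals alone gave 1681 higher and 96 lower, and those without the major urinary protein genes 1108 and 141, in place of 732 and 223. Leaving out 1 library gave 874 to 1038 genes higher, 981 to 1173 lower, 625 to 793 over 2-fold higher and 229 to 266 over 2-fold lower, and a difference in the share of major urinary protein counts between -11.29 and -9.574 percentage points. For the difference of effects, leaving out 1 library gave 134 to 611 genes with a higher and 88 to 464 with a lower effect in Fgf18 Tg, and the highest counts were those without Cflar FF replicate 2. The cause of these changes was not tested.

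Log2 fold changes that turned positive were those of genes not called. With library totals alone these were Fgfr3 (0.26), Mup20 (0.15), Slco1a1 (0.40), Hsd3b5 (0.21), Cyp2e1 (0.16), Ces1c (0.37), Cyp7a1 (0.18), Pck1 (0.33), Vtn (0.34), Alb (0.10) and Clec4f (0.015), of which Slco1a1, Ces1c and Vtn were then called higher. Without the major urinary protein genes in the totals they were Fgfr3 (0.082), Slco1a1 (0.22), Hsd3b5 (0.029), Ces1c (0.19), Cyp7a1 (0.004), Pck1 (0.14) and Vtn (0.16). With 10 counts in 3 libraries it was Slco1a1 (0.008). Leaving out 1 library gave ranges across 0 for Fgfr3 (-0.356 to 0.251), Mup20 (-0.624 to 0.166), Slco1a1 (-0.054 to 0.019), Ces1c (-0.13 to 0.012) and Pck1 (-0.307 to 0.152). No named gene that was called changed direction under any of these settings.

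The replicate numbers did not pair the samples, since same-numbered libraries of the 2 groups did not deviate together (correlations of -0.03, 0.06 and 0.10). A replicate block gave 1260 genes higher and 1290 lower, and 194 and 149 for the difference of effects. Under the block the calls of Cyp4a12a (adjusted p = 0.0596) and Igfbp1 (0.0711) and those of the differences of Serpina7 (0.0876) and Avpr1a (0.0701) were lost. At 1136680 to 3089872 counts per library, genes such as Acta2, Krt19 and Timp1 could not be tested.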
